A study of Mus musculus with 6 samples.

Results

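Glutathione peroxidases are enzymes named for the reduction of hydrogen peroxide and organic hydroperoxides with electrons from glutathione. The 7 genes Gpx1, Gpx2, Gpx3, Gpx4, Gpx6, Gpx7 and Gpx8 were taken by gene symbol from the 52459 genes counted in mouse liver. Gpx6 was chosen by its counts in the groups compared here, which were higher in sgPrdx2 than in sgCtrl livers, so its values are a description without a test. The other 6 genes are described as its relatives. An eighth family member, Gpx5, an enzyme of the epididymis, was in the count table with 0 counts in each of the 6 livers. All 7 genes had enough counts to be tested, within a fit that covered 17032 genes.

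RNA was sequenced from whole livers of 6 male C57BL6J mice of the Alb-Cre/Cas9 F1 generation, in which Cre from the albumin promoter switches on Cas9 in hepatocytes. At 4 to 5 weeks of age the mice received by vein an AAV8 vector with a U6-driven guide RNA, either sgCtrl (mice 5.1, 7.1 and 7.2), which targets GFP, or sgPrdx2 (mice 1.1, 1.3 and 3.2), which targets the peroxiredoxin gene Prdx2. Then 3 weeks later each of the 6 mice was injected with diethylnitrosamine (DEN, 100 mg/kg), which causes liver tumors, and from the following week all were kept for 6 months on CDAHFD, a high-fat diet that lacks choline. Their age at collection is given as 8 months. All comparisons are therefore between livers exposed to DEN and the diet, and cells other than hepatocytes, as well as hepatocytes that the vector did not reach, keep an intact Prdx2 gene.

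The glutathione peroxidases act beside the peroxiredoxins, which reduce the same peroxides with electrons from thioredoxin. Gpx1 is the abundant enzyme of the hepatocyte cytosol, and Gpx4 reduces lipid peroxides inside membranes and thereby guards cells against ferroptosis, an iron-dependent form of cell death. Gpx1, Gpx2, Gpx3 and Gpx4 carry selenocysteine in the active site, an amino acid that is inserted at a TGA codon, which elsewhere ends translation. In mouse Gpx5, Gpx6, Gpx7 and Gpx8 a cysteine stands in its place.

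The coding sequence around this codon is shown because it sets the family's 2 classes apart. Each line gives 30 coding bases of the principal transcript (GENCODE M21, build GRCm38), 5′ to 3′ on the coding strand, with the codon of the active-site residue in capitals. The TGA codons are annotated as selenocysteine, and the cysteine codons were found by aligning the translated coding sequences to that of Gpx1.
Gpx1: gtcgcgtctctcTGAggcaccacgatccgg
Gpx2: gtggcgtcactcTGAggaacaactacccgg
Gpx3: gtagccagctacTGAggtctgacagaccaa
Gpx4: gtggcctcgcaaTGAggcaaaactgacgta
Gpx5: gtggctacctatTGCggtctgacaatccag
Gpx6: gtggcatccttcTGTggcctgacagctacg
Gpx7: gtagctagcgaaTGTggcttcacagaccag
Gpx8: gtggctagtgacTGCcgcttcacagacaag

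The active-site residue was residue 47 of 201 in Gpx1, 40 of 190 in Gpx2, 73 of 226 in Gpx3 and 73 of 197 in Gpx4. Among the cysteine forms it was residue 73 of 221 in Gpx6, 56 of 186 in Gpx7 and 79 of 209 in Gpx8. Over aligned residues, Gpx6 was 66.5% identical to the selenoprotein Gpx3 and 63.8% identical to its neighbor Gpx5. Gpx1 and Gpx2 shared 63.2% of residues and the endoplasmic reticulum enzymes Gpx7 and Gpx8 shared 48.4%.

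Total counts were between 37462102 and 56865293 per liver. Values are CPM, counts as a share of the library total after TMM normalization, which scales each library so that the typical gene does not change. At these depths 3 counts stand for 0.0554 to 0.0921 CPM, which covers counting error only. The targeted gene itself did not separate the groups at the RNA level. Prdx2 had 98.9 to 149 CPM in sgPrdx2 livers and 109 to 132 CPM in sgCtrl livers, so the group labels could not be checked from it. The paper reports suppressed PRDX2 protein in hepatocytes by immunohistochemistry, which RNA counts do not measure. It also measured Prdx2 RNA in mouse livers by quantitative PCR, and its text gives no value for sgPrdx2 against sgCtrl. Across all genes, 567 of 17032 (3.33%) had an adjusted p under 0.05 in edgeR's quasi-likelihood test and 34.2% did not overlap between groups. Leaving out mouse 5.1, 7.2, 1.1 or 1.3 left 0 genes called by edgeR, with 3114 to 3993 at an unadjusted p under 0.05. Among the 6 glutathione peroxidases other than Gpx6, edgeR called 0 (background 3.33%), and 2 of them, Gpx1 and Gpx2, had an unadjusted p under 0.05 (background 24.9%). DESeq2 called 1 of the 6, Gpx1 (background 13.4%), as did edgeR without the filter on low counts (background 3.94%). The paper reports, from its RNA-Seq data at a stricter threshold, that glutathione peroxidase expression rose with the hepatocyte knockout of Prdx2. Its figure legend does not say which member this was.

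Gpx1, the main cytosolic and mitochondrial peroxidase of the liver (chr9:108338903-108340343, plus strand, GRCm38), was counted about 2.1 times as often in sgPrdx2 as in sgCtrl livers after normalization. It had 58251, 88303 and 64172 counts in sgCtrl livers 5.1, 7.1 and 7.2 and 127278, 130764 and 136105 counts in sgPrdx2 livers 1.1, 1.3 and 3.2. The normalized values were 1330, 1963 and 1220 CPM in sgCtrl and 2898, 2417 and 4178 CPM in sgPrdx2 livers. All 3 sgPrdx2 livers were above all 3 sgCtrl livers, and the lowest sgPrdx2 liver had 1.23 times the CPM of the highest sgCtrl liver. Such a separation upward was seen in 16.7% of all genes tested. The means were 1504 ± 401 CPM (SD, n = 3) and 3164 ± 910 CPM (SD, n = 3). The log2 fold change was 1.07 (SE, standard error, 0.27) and did not pass the threshold in edgeR's quasi-likelihood test (adjusted p = 0.0675). Its adjusted p was 0.0011 with DESeq2 and 0.0222 with edgeR without the filter on low counts. Over all 13 alternatives the log2 fold change lay between 0.68 and 1.31 and the adjusted p between 0.0011 and 0.2.

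The hepatocyte markers moved in the same direction as Gpx1. All 8 of them (Alb, Apoa1, Ttr, Cps1, Cyp2e1, Hnf4a, Fah and Tat) had log2 fold changes above 0 (7 of 8 with scaling to total counts alone), 5 were called higher (background 1.79%) and 7 did not overlap (background 16.7%). Their median log2 fold change was 0.97, against -0.02 for all genes. Their summed level was 76759 to 82301 CPM in sgCtrl and 131651 to 177262 CPM in sgPrdx2 livers, and liver 3.2, with the most Gpx1, also had the largest hepatocyte sum. The sum was mostly Alb, with 58782 to 62535 CPM in sgCtrl and 97557 to 127947 CPM in sgPrdx2 livers. Alb, Apoa1, Ttr, Cyp2e1 and Fah were highest of all livers in liver 3.2, whereas Cps1, Hnf4a and Tat were not. In whole liver, more hepatocytes and more RNA per hepatocyte cannot be told apart, and the part of either in the level of Gpx1 was not tested. The 8 macrophage markers summed to 1960 to 2517 CPM in sgCtrl and 1251 to 1409 CPM in sgPrdx2 livers, and 2 of them were called lower (background 1.54%). The 8 markers of stellate cells and fibroblasts summed to 1970 to 2192 CPM and 1407 to 1480 CPM, with 0 called by edgeR (background 3.33%) and 5 at an unadjusted p under 0.05 (background 24.9%). Erythroid markers, of cells rich in Gpx1, summed to 156 to 200 CPM in sgCtrl and 189 to 257 CPM in sgPrdx2 livers. The higher sum came from Alas2, at 59.2 ± 25.0 CPM in sgCtrl and 118 ± 16.1 CPM in sgPrdx2 livers (SD, n = 3 each). The other 4 of the 5, the globin genes Hba-a1, Hba-a2, Hbb-bs and Hbb-bt, had log2 fold changes below 0.

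Gpx2, the glutathione peroxidase of the gut lining and other epithelia (chr12:76792333-76795554, minus strand), was high in a lone control liver. Counts were 811, 123 and 307 in sgCtrl livers 5.1, 7.1 and 7.2 and 104, 119 and 134 in sgPrdx2 livers 1.1, 1.3 and 3.2. These were 18.5, 2.73 and 5.84 CPM in sgCtrl and 2.37, 2.20 and 4.11 CPM in sgPrdx2 livers. Liver 5.1 had 6.77 times the CPM of liver 7.1 within the same group, and liver 7.1 lay inside the range of the sgPrdx2 livers, so the groups overlapped. The sgCtrl mean was 9.03 ± 8.36 CPM and the sgPrdx2 mean 2.89 ± 1.06 CPM (SD, n = 3 each). The log2 fold change of -1.65 (SE 0.64) missed the threshold in edgeR's quasi-likelihood test (adjusted p = 0.164). Without mouse 5.1 it was -0.58 (adjusted p = 0.48), and without mouse 7.1 it was -2.08 (adjusted p = 0.0772).

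The excess in liver 5.1 was larger than counting error, as exact Poisson intervals (95%, counting error only) were 756 to 869 for its 811 counts and 102 to 147 for the 123 counts of liver 7.1. Of the 6 cholangiocyte markers, 3 (Krt19, Krt7 and Epcam) were highest of all livers in liver 5.1, and the other 3 (Sox9, Cftr and Spp1) were not. The keratin gene Krt19 had 94.1 CPM in liver 5.1 and 27.8 to 44.2 CPM in the other 5 livers, and Krt7 had 32.2 CPM against 16.3 to 25.3 CPM. The summed level of the list, 1754 CPM in liver 5.1, 1629 in liver 7.1 and 1857 in liver 7.2, was mostly Spp1, with 1533, 1491 and 1706 CPM in these livers. The 5 tumor markers summed to 113 to 131 CPM in sgCtrl and 67.4 to 76.4 CPM in sgPrdx2 livers, mostly from Cd44 and Golm1. Both were highest in liver 5.1, whereas Afp and Gpc3 were highest in liver 7.2. Their part in the level of Gpx2 was not tested. Gpx2 overlaps Fntb on the opposite strand, and Fntb had 266 to 441 counts in sgCtrl and 250 to 371 counts in sgPrdx2 livers, with no excess in liver 5.1. Whether reads were counted by strand is not given in the sources used here. Of the 50-base stretches in its transcripts, 6.03% also lie in other genes, among them the pseudogene Gpx2-ps1, which had at most 1 count per liver.

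**Figure D1:**
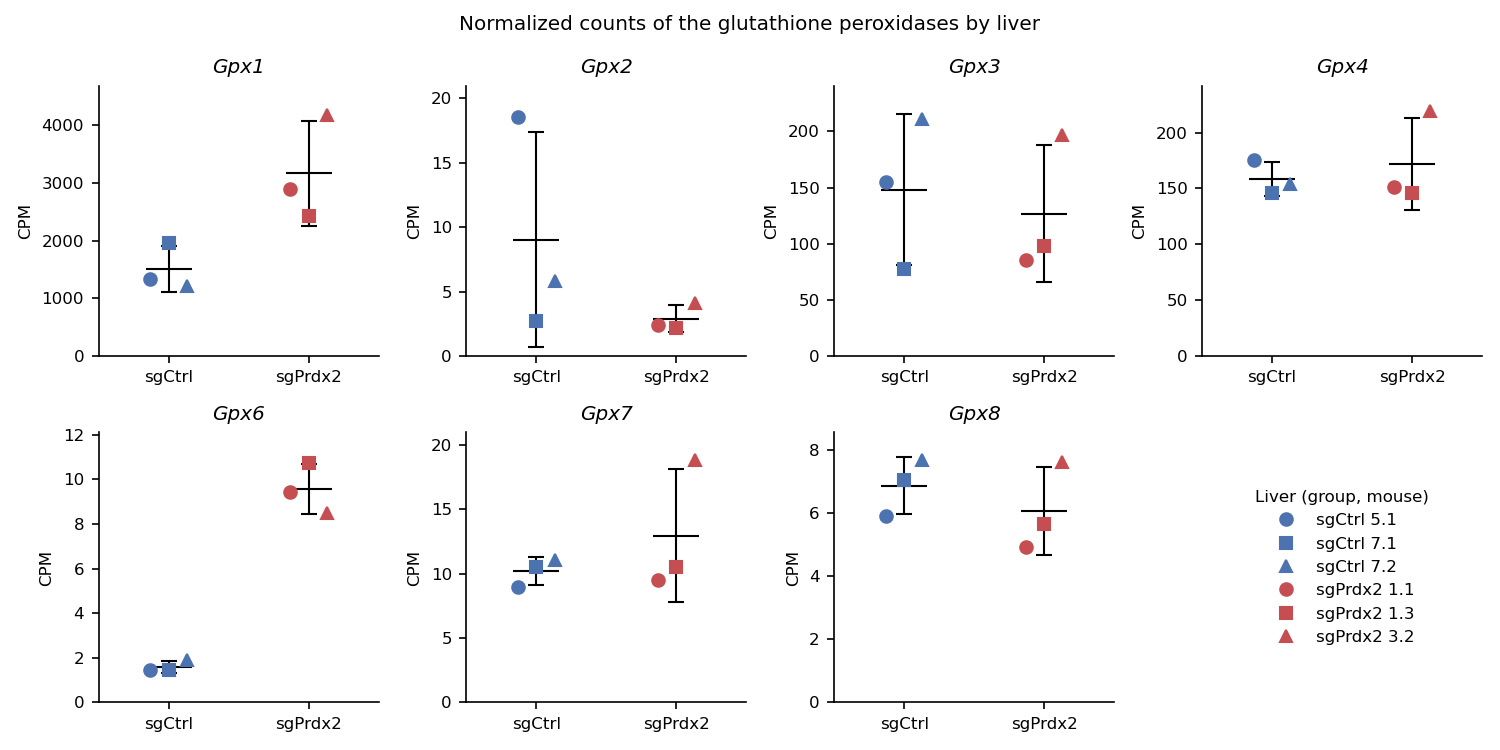
Normalized counts (CPM, linear axes that start at 0 and differ between panels) of the 7 glutathione peroxidases in 3 sgCtrl livers (blue) and 3 sgPrdx2 livers (red), with a point per liver, the mean as a horizontal line and the SD as an error bar. Gpx1 and Gpx6, the latter chosen for this contrast, do not overlap between the groups, as is so for 34.2% of all genes tested. The other 5 genes overlap, and Gpx2 stands out at 18.5 CPM in sgCtrl liver 5.1.

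Gpx3, the secreted peroxidase found in plasma and made mainly by kidney (chr11:54902453-54910377, plus strand), varied widely within both groups. It had 155, 77.6 and 211 CPM in sgCtrl livers 5.1, 7.1 and 7.2 and 85.1, 97.9 and 197 CPM in sgPrdx2 livers 1.1, 1.3 and 3.2. Each group held a liver near 200 CPM and a liver below 90 CPM. The log2 fold change was -0.22 (SE 0.42, adjusted p = 0.762 in edgeR's quasi-likelihood test), and it ranged from -0.68 without mouse 3.2 to 0.12 without mouse 7.2. The kidney markers Umod, Kap, Slc34a1 and Slc12a1 summed to at most 0.616 CPM in any liver, and Slc12a1 had no counts.

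Gpx4, the lipid hydroperoxide reductase (chr10:80047166-80056439, plus strand), was the steadiest of the genes among sgCtrl livers. It had 175, 146 and 154 CPM in sgCtrl livers 5.1, 7.1 and 7.2 and 151, 146 and 219 CPM in sgPrdx2 livers 1.1, 1.3 and 3.2. Liver 3.2 lay above the sgCtrl range, and livers 1.1 and 1.3 were close to the lower sgCtrl livers. The means were 158 ± 15.2 CPM (SD, n = 3) and 172 ± 41.2 CPM (SD, n = 3), a log2 fold change of 0.12 (SE 0.19, adjusted p = 0.722 in edgeR's quasi-likelihood test) that was -0.08 without mouse 3.2 and -0.27 with scaling to total counts alone. The value is uncertain because 34.7% of the 50-base stretches of its transcripts also lie in Gpx4-ps2 or AC122253.3, and how such reads were assigned is not given in the sources used here.

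Gpx6, the closest relative of the plasma enzyme Gpx3 in this family and known from the olfactory epithelium and the embryo, was the gene noticed for its pattern (chr13:21312125-21319624, plus strand). It had 63, 66 and 101 counts in sgCtrl livers 5.1, 7.1 and 7.2 and 414, 581 and 277 counts in sgPrdx2 livers 1.1, 1.3 and 3.2. The normalized values were 1.44, 1.47 and 1.92 CPM in sgCtrl and 9.43, 10.7 and 8.50 CPM in sgPrdx2 livers. Every sgPrdx2 liver was above every sgCtrl liver, the lowest of the former at 4.43 times the highest of the latter, and the livers within each group lay close together. The means of 1.61 ± 0.270 CPM (SD, n = 3) and 9.56 ± 1.12 CPM (SD, n = 3) differed 5.94-fold. The log2 fold change of 2.57 was the 7th highest of 17032. As the gene was chosen for this contrast, this rank is only a description, and no p is given for it.

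The size of this difference, again a description of a chosen gene, moved little with the processing. It lay between 2.21 and 2.72 on the log2 scale over the 13 alternatives, and the lowest value came from scaling to total counts alone, where the median gene was at -0.39 and Gpx6 was 2.59 above it. Leaving out a mouse gave 2.49 to 2.72. No 50-base stretch of the Gpx6 transcript was shared with another gene. Its annotated neighbors, Gpx5 at 19393 bases and the olfactory receptor gene Olfr1367 at 27285 bases, had 0 counts in every liver, which allows at most 0.0554 to 0.0921 CPM. The 4 markers of olfactory mucosa summed to 0.513 to 0.667 CPM in sgCtrl and 0.592 to 0.832 CPM in sgPrdx2 livers, with Obp1a and Bpifb9a at 0 counts.

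The genes whose pattern over the 6 livers was most like that of Gpx6 were found by the root-mean-square difference of log2 CPM, centered per gene, among the 14133 genes that averaged 1 CPM or more. They were Hamp2 (0.349), a hepcidin gene, Upp2 (0.418), a uridine phosphorylase, Chrm1 (0.451), a muscarinic acetylcholine receptor, BC024139 (0.467) and Enho (0.468), which encodes the secreted peptide adropin. Hamp2 has a close paralog, and whether its reads were told apart from those of the paralog was not tested. Hamp2 had 2.28, 4.02 and 4.26 CPM in sgCtrl livers 5.1, 7.1 and 7.2 and 32.2, 23.7 and 16.9 CPM in sgPrdx2 livers 1.1, 1.3 and 3.2. Upp2 had 76.1, 58.8 and 76.7 CPM in sgCtrl and 285, 249 and 188 CPM in sgPrdx2 livers. Chrm1 was at 1.44 ± 0.329 CPM in sgCtrl and 4.65 ± 0.123 CPM in sgPrdx2 livers (SD, n = 3 each). All 5 were found by their likeness to a gene that separates the groups, so their separation is no result of its own.

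Gpx7 and Gpx8 are enzymes of the endoplasmic reticulum that use peroxide during protein folding. Gpx7 (chr4:108400390-108406961, minus strand) had 9.00, 10.5 and 11.1 CPM in sgCtrl livers 5.1, 7.1 and 7.2 and 9.50, 10.5 and 18.9 CPM in sgPrdx2 livers 1.1, 1.3 and 3.2. Livers 1.1 and 1.3 were within the sgCtrl range and liver 3.2 alone was above it. The log2 fold change was 0.34 (SE 0.26, adjusted p = 0.446 in edgeR's quasi-likelihood test), -0.02 without mouse 3.2 and -0.05 with scaling to total counts alone. Gpx8 (chr13:113042753-113046410, minus strand) had 5.91, 7.05 and 7.68 CPM in sgCtrl and 4.94, 5.66 and 7.64 CPM in sgPrdx2 livers. Its groups overlapped, with a log2 fold change of -0.18 (SE 0.20, adjusted p = 0.606 in the same test) and a range of -0.56 to -0.05 over the alternatives. Cdc20b, which overlaps Gpx8 on the opposite strand, had at most 1 count per liver.

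Liver 3.2 was the highest sgPrdx2 liver for 6 of the 7 genes, Gpx1, Gpx2, Gpx3, Gpx4, Gpx7 and Gpx8, and the lowest for Gpx6. It was the highest of its group for 43.1% of all genes tested, and for 5112 of the 17032 when libraries were scaled to total counts alone, where the same 6 genes were still highest in it. Its TMM factor, 0.805, was the lowest of the 6 libraries. The 7 genes are short, with 1048 to 3222 exonic bases each against a median of 3880 over the tested genes with a length, and a correction for transcript length in each library left Gpx1 at 0.85 (adjusted p = 0.0826) and Gpx4 at -0.06 on the log2 scale. The coefficient of variation within sgCtrl livers ran from 9.59% for Gpx4 to 92.6% for Gpx2, and within sgPrdx2 livers from 11.7% for Gpx6 to 48.4% for Gpx3.

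**Figure D2:**
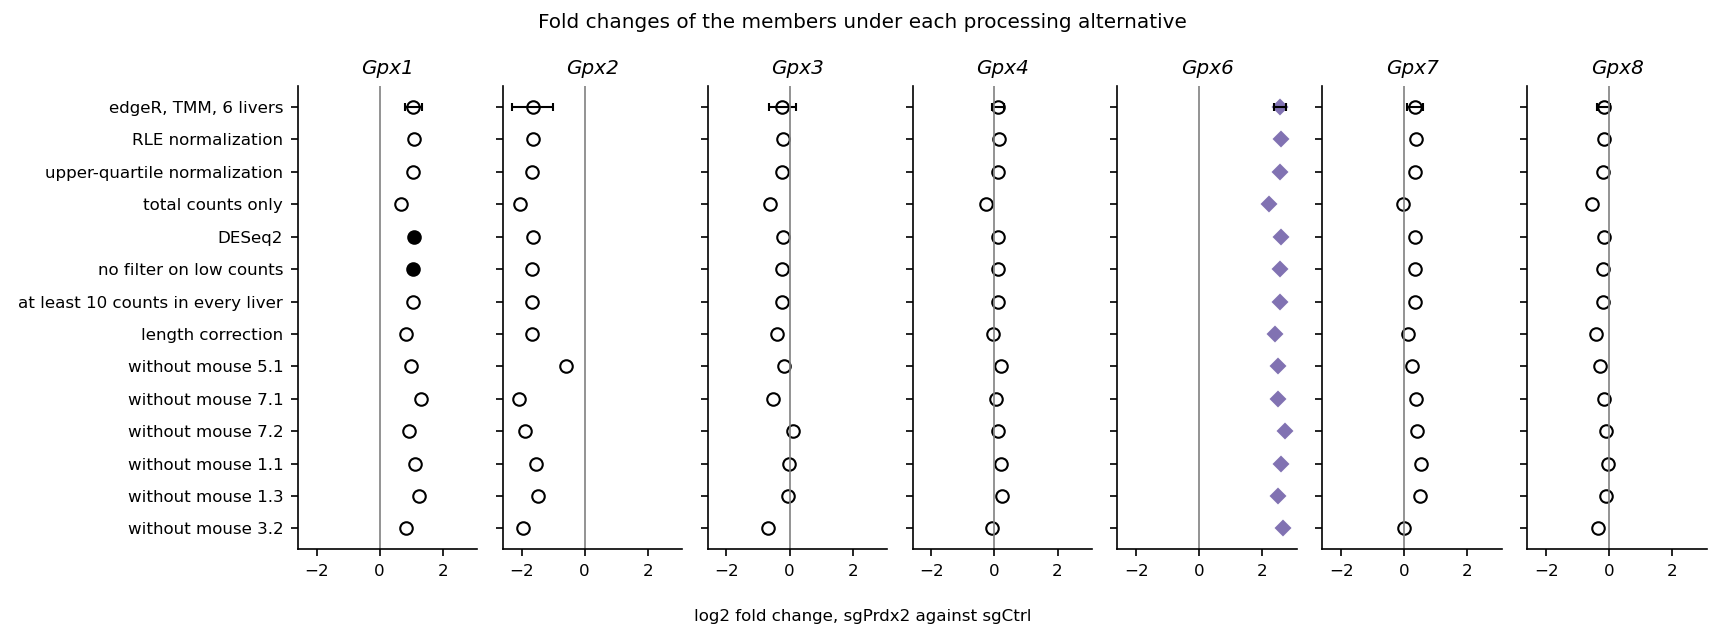
Log2 fold change of sgPrdx2 against sgCtrl livers for the 7 genes under edgeR with TMM (top, with the standard error) and 13 processing alternatives. Circles are filled where the adjusted p is under 0.05 and open where it is not. Diamonds mark Gpx6, which was chosen for this contrast, so no p is given for it and its bar is not read as a test. Gpx1 stays above 0 and Gpx6 above 2.2 in every setting, while Gpx3, Gpx4 and Gpx7 cross 0.

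The levels of the genes can be compared only per transcript length, given here as RPKM (CPM divided by the length of the principal transcript in kilobases). In sgCtrl livers Gpx1 led with 1403 ± 374 RPKM (SD, n = 3). Its rank was 31 of 16540 genes when all annotated exonic bases were taken as the length, as in all ranks given here. Gpx4 followed with 165 ± 15.9 RPKM and Gpx3 with 92.8 ± 42.1 RPKM (SD, n = 3 each). The means of the other 4 genes were an order of magnitude or more below that of Gpx3, with Gpx2 at 8.46 ± 7.84, Gpx7 at 7.91 ± 0.842, Gpx8 at 6.60 ± 0.860 and Gpx6 last at 1.20 ± 0.202 RPKM (SD, n = 3 each). Neighbors in this order did not overlap between livers except Gpx2 with Gpx7 and Gpx7 with Gpx8.

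In sgPrdx2 livers the top of the order was the same, with Gpx1 at 2952 ± 849, Gpx4 at 179 ± 42.9 and Gpx3 at 79.5 ± 38.5 RPKM (SD, n = 3 each). Gpx7 came next at 10.1 ± 3.99 RPKM, then Gpx6 at 7.13 ± 0.838, Gpx8 at 5.83 ± 1.34 and Gpx2 at 2.71 ± 0.993 RPKM (SD, n = 3 each). Gpx6 overlapped both of its neighbors, Gpx7 and Gpx8. Its rank by RPKM over all annotated exonic bases was 5060 of 16540 genes, against 11381 in sgCtrl livers. Gpx1 made up 82.5% ± 5.96 of the summed RPKM of the family in sgCtrl livers, against 91.2% ± 0.813 in sgPrdx2 livers (SD, n = 3 each). By liver it was 80.0%, 89.3% and 78.2% in sgCtrl livers 5.1, 7.1 and 7.2. In sgPrdx2 livers 1.1, 1.3 and 3.2 it was 92.1%, 90.5% and 91.0%, so liver 7.1 was close to these. The sum of the other 6 genes was 282 ± 54.7 RPKM in sgCtrl and 285 ± 86.7 RPKM in sgPrdx2 livers (SD, n = 3 each). The place of Gpx2 depends on the length used, as all its annotated exonic bases, 3222 against 1067 in the principal transcript, give 2.80 RPKM in sgCtrl and 0.898 RPKM in sgPrdx2 livers.

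**Figure D3:**
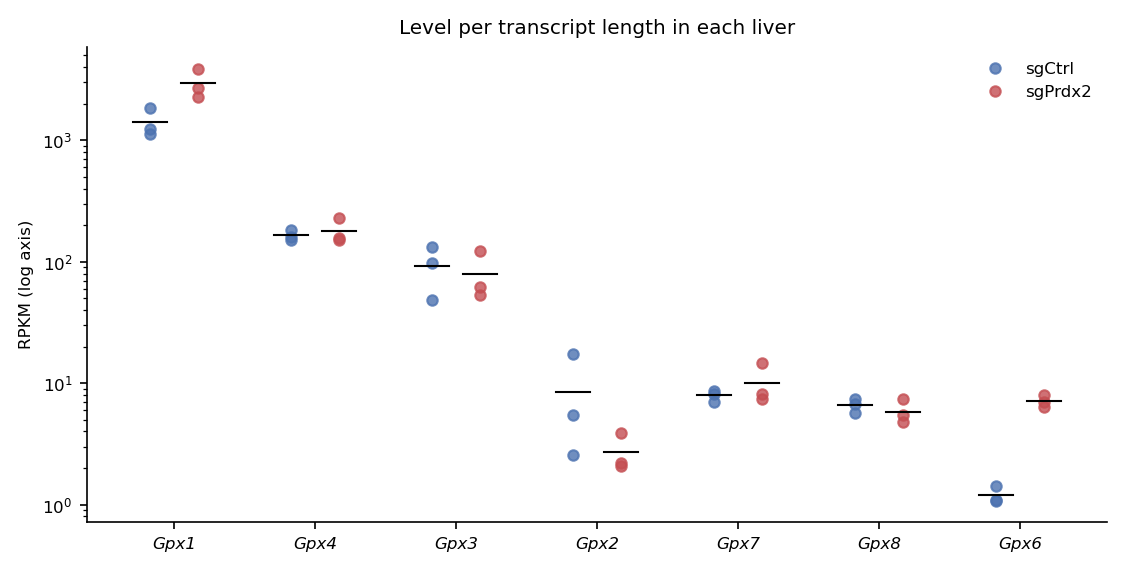
Level per transcript length (RPKM, log axis) of the 7 genes in each sgCtrl liver (blue) and sgPrdx2 liver (red), in the order of the sgCtrl means, with the group mean as a line. Gpx1 lies above all others in every liver, and Gpx6 moves from the lowest place, 1.20 RPKM, to the range of Gpx7 and Gpx8 at 7.13 RPKM.

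Selenium has to reach the cell and be built into selenocysteine before Gpx1 to Gpx4 can be made. Of 20 other selenoprotein genes, 18 could be tested (Dio3 and Selenov could not), and 2 rose while none fell (backgrounds 1.79% and 1.54%). The median log2 fold change was 0.25, against -0.02 for all genes, 15 of the 18 were above 0 (7 with scaling to total counts alone, where 15 were above the median gene), and 7 were higher and 2 lower without overlap (backgrounds 16.7% and 17.5%). The called genes were Selenoo, which encodes a mitochondrial selenoprotein that attaches AMP to other proteins, and Sephs2, which makes the selenium donor for selenocysteine. Selenoo had 45.8, 56.3 and 46.1 CPM in sgCtrl livers 5.1, 7.1 and 7.2 and 106, 91.2 and 110 CPM in sgPrdx2 livers 1.1, 1.3 and 3.2, with a log2 change of 1.05 (SE 0.15, adjusted p = 0.0328 in edgeR's quasi-likelihood test). Sephs2 had 406, 515 and 518 CPM in sgCtrl and 903, 813 and 844 CPM in sgPrdx2 livers, with a log2 change of 0.83 (SE 0.16, adjusted p = 0.0409). Neither gene overlapped between groups. Msrb1, a methionine sulfoxide reductase, was at 0.88 on the log2 scale (adjusted p = 0.0537). The call of Sephs2 was lost when mouse 5.1, 7.1, 7.2, 1.1 or 1.3 was left out and with scaling to total counts alone, where its log2 fold change was 0.46 (adjusted p = 0.0581). The call of Selenoo was lost when mouse 5.1, 7.2, 1.1 or 1.3 was left out. Txnrd1 and Selenon, at -0.53 and -0.42 on the log2 scale, were not called by edgeR with TMM but were called lower by DESeq2 and with scaling to total counts alone.

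The 10 tested genes of selenium supply and selenocysteine insertion (of 11, Lrp2 not tested) gave 0 calls in edgeR (background 3.33%) and in DESeq2 (background 13.4%). Sephs2, called higher, also acts in this pathway but was listed with the other selenoproteins and is not counted here. Of the 10 genes, 5 had an unadjusted p under 0.05 in edgeR (background 24.9%). Their median log2 fold change was 0.22, with 6 above 0 (3 with scaling to total counts alone). The smallest p were those of the elongation factor gene Eefsec (log2 fold change 0.48, adjusted p = 0.159), the kinase gene Pstk (0.45, adjusted p = 0.160) and the selenocysteine lyase gene Scly (0.40, adjusted p = 0.168). Scly, which frees selenium from selenocysteine, had 74.9, 99.0 and 97.9 CPM in sgCtrl and 127, 108 and 122 CPM in sgPrdx2 livers. Of the 10 genes, 4 were higher without overlap (background 16.7%) and 1, the receptor gene Lrp8, was lower without overlap (background 17.5%).

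Glutathione is the cosubstrate that gives the family its name, and all 16 genes of glutathione synthesis, reduction and turnover were tested. Slc7a11 fell (1 called lower, background 1.54%) and none rose, with 10 of 16 above 0 (3 with scaling to total counts alone) and a median log2 fold change of 0.19. Slc7a11 is the cystine importer that feeds glutathione synthesis. It had 9.45, 5.71 and 4.66 CPM in sgCtrl livers 5.1, 7.1 and 7.2 and 2.37, 2.77 and 2.82 CPM in sgPrdx2 livers 1.1, 1.3 and 3.2, without overlap. The log2 fold change was -1.31 (SE 0.28, adjusted p = 0.0491 in edgeR's quasi-likelihood test), just inside the threshold, and the call was lost whichever mouse was left out, with adjusted p between 0.0668 and 0.16. Slc3a2, the partner subunit of this importer, was at -0.63 on the log2 scale (adjusted p = 0.0804) and Chac2, which breaks glutathione down, at 0.51 (adjusted p = 0.0920). Liver 5.1 had both the most Slc7a11 and the most Gpx2 of the 6 livers.

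Of 12 genes of lipid peroxidation and ferroptosis, the setting in which Gpx4 acts, 1 rose (background 1.79%) and none fell. The median log2 fold change was -0.03, close to that of all genes, and 6 of the 12 were above 0 (1 with scaling to total counts alone). Gch1, the first enzyme of tetrahydrobiopterin synthesis, had 103, 95.6 and 79.6 CPM in sgCtrl livers 5.1, 7.1 and 7.2 and 142, 148 and 166 CPM in sgPrdx2 livers 1.1, 1.3 and 3.2. Its groups did not overlap, the log2 fold change was 0.71 (SE 0.15, adjusted p = 0.0479 in edgeR's quasi-likelihood test), and leaving out any mouse lost the call, with adjusted p between 0.0545 and 0.169. It was also lost with scaling to total counts alone, at a log2 fold change of 0.34 (adjusted p = 0.126). Alox15, a lipoxygenase that oxidizes membrane lipids, was below 1 CPM in every liver (log2 fold change -1.29, adjusted p = 0.132). Lpcat3, which loads polyunsaturated fatty acids into phospholipids, was at 0.28 on the log2 scale (adjusted p = 0.201) and at -0.09 with scaling to total counts alone, where the median of all genes was -0.39.

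**Figure D4:**
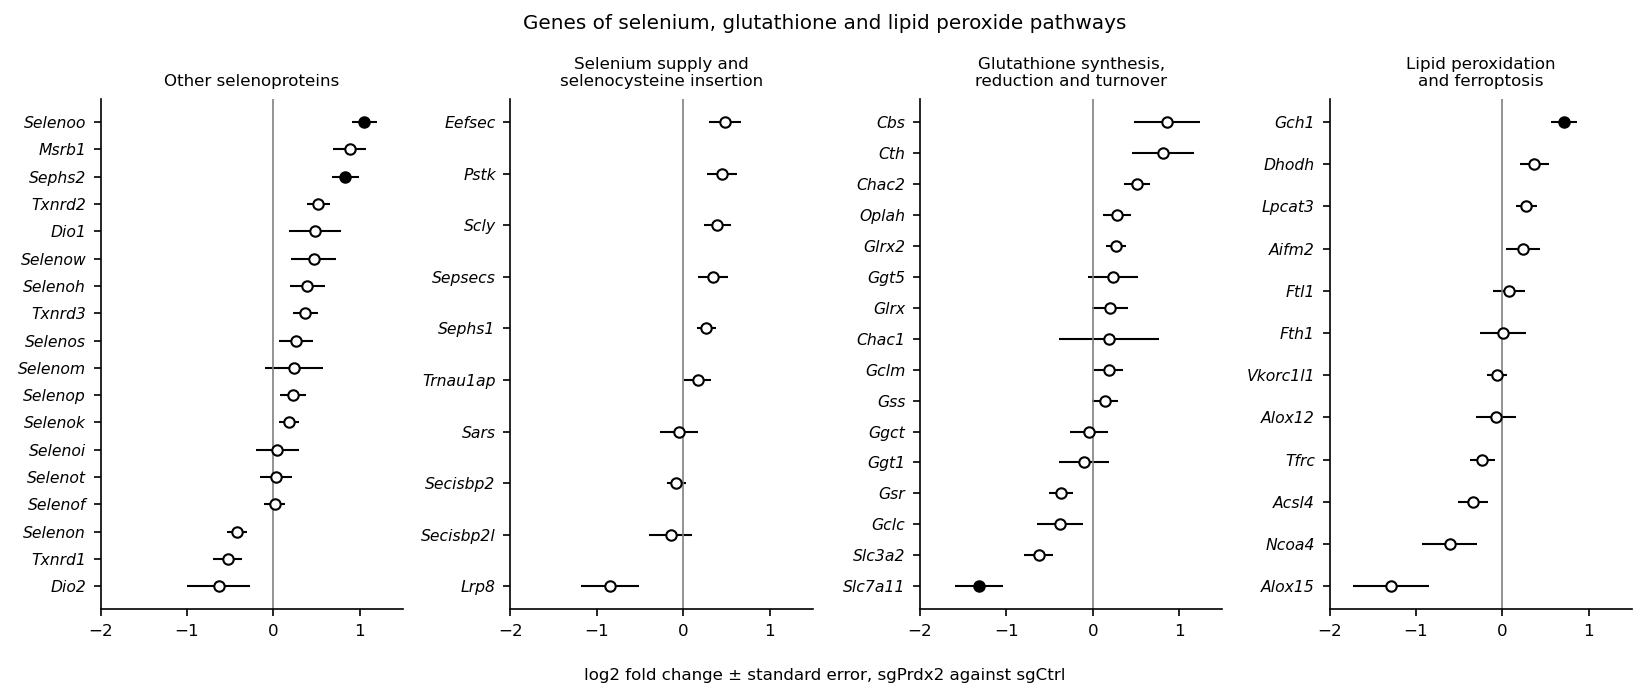
Log2 fold change of sgPrdx2 against sgCtrl livers (points) with its standard error (bars) for the tested genes of 4 lists around the glutathione peroxidases, with filled points where the adjusted p is under 0.05. Selenoo, Sephs2, Slc7a11 and Gch1 pass (background 3.33% of all genes), and each call is lost when mouse 5.1, 7.2, 1.1 or 1.3 is left out. Of the 18 other selenoprotein genes, 15 lie above 0 (7 with scaling to total counts alone).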

How the data were processed

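RNA-Seq of 6 mouse livers, 3 per group by the sample labels, was analyzed. The authors deposited raw counts, the number of reads assigned to each of 52459 genes per liver, and the submitters' processing notes name GRCm38, HISAT2, HTSeq and DESeq2. Versions, annotation and the strand setting are not given in the sources used here. Their second table, with the authors' own DESeq2 comparison (mean, log2 fold change, p), was not used.

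Counts were analyzed in R 4.3.3 with edgeR 4.0.16 (filterByExpr with a minimum count of 10, which kept 17032 genes, TMM, glmQLFit and glmQLFTest, no covariates) and Benjamini-Hochberg adjustment over all genes tested, with 0.05 as the threshold. Each SE was obtained from the log2 fold change and its F statistic. Alternatives were RLE and upper-quartile normalization, total counts, DESeq2 1.42.0, no filter, at least 10 counts in every liver, a transcript length correction (97.1% of tested genes had a length), and leaving out each mouse. In simulated data 200 of 17032 genes were changed 4-fold and all genes were given the same dispersion. There edgeR recovered 200 with 7 false calls, and DESeq2 recovered 200 with 19 false calls. As the spread differs between genes in the livers, this does not measure the power or the false calls in these data. No library repeated another (lowest chi-square per degree of freedom between livers 30.6). Positions, lengths and sequences came from GENCODE M21. In the likeness to Gpx6, 0.1 CPM was added before taking logs.

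The genes, lists and alternatives were chosen with earlier results of these data known. Named are Prdx2, the family, the neighbors of Gpx6, the 5 genes most like it, and in each list every called gene or otherwise up to 3 genes with the smallest p. Others are named beside a result they bear on, after their values were seen.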

Additional observations from a re-analysis of the deposited data

How the results depend on the processing

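The count of genes called was 567 of 17032 (3.33%) with edgeR and TMM. It was 3229 of 17032 with total counts alone (206 higher and 3023 lower) and 811 of 17032 with the length correction. DESeq2 called 2048 of 15329 (13.4%), and 1128 of 28631 (3.94%) were called without a filter on low counts. When a mouse was left out, 0 to 619 were called. Among the glutathione peroxidases other than Gpx6, 1 was called (Gpx1) with DESeq2 and 1 (Gpx1) without the filter, and none under the other alternatives. Of the 18 other selenoproteins tested, 6 were called with DESeq2 (background 13.4%), Txnrd1 and Selenon among them, both lower. With total counts alone 3 were called (all genes 3229 of 17032), Txnrd1 and Selenon, lower, and Selenoo, without Sephs2. There were 4 calls with the length correction (all genes 811 of 17032) and 0 to 4 without a mouse. Of the 10 selenium genes tested, 1 (Lrp8) was called with total counts alone (all genes 3229 of 17032). Of the 16 glutathione genes, 3 were called with total counts alone (all genes 3229 of 17032) and 3 with DESeq2 (background 13.4%). The length correction gave 0 calls (all genes 811 of 17032), and leaving out a mouse gave 0 to 1. Of the 12 ferroptosis genes, 3 were called with total counts alone (all genes 3229 of 17032), Acsl4, Alox15 and Tfrc, without Gch1. Whichever mouse was left out, 0 were called. Log2 fold changes that turned in sign were those of Gpx3 (-0.68 to 0.12 when a mouse was left out), Gpx4 (-0.27 with total counts alone, -0.06 with the length correction, -0.084 to 0.243 without a mouse), Gpx7 (-0.051 with total counts alone, -0.017 to 0.523 without a mouse), Prdx2 (-0.005 with upper-quartile normalization, -0.37 with total counts alone, -0.005 without the filter, -0.037 with the length correction, -0.17 to 0.13 without a mouse) and Lpcat3 (-0.09 with total counts alone). The causes were not tested, although total counts alone shift the median of all genes to -0.39. Of 259 values of 20 named genes under alternatives, 209 kept their direction and side of the threshold, or, for Gpx6, moved by less than the spread between livers, 24 lost and 11 gained a call, 14 turned in sign, and 1 (Gpx6 with total counts alone) moved by more.

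With 3 livers per group from whole tissue, the calls rest on few animals, and those of Selenoo, Sephs2, Slc7a11 and Gch1 were lost when some mice were left out. Gpx6 and Gpx2 rest on 63 to 811 counts per liver. No paired analysis was possible because the groups share no replicate numbers. Protein levels and enzyme activities were not analysed here.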
